A study of Mus musculus with 6 samples.

Results

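The genes of TNF and death receptor signalling were read in mouse articular chondrocytes, the cell type of joint cartilage. The set held 10 genes chosen by symbol: the ligand gene Tnf, the receptor genes Tnfrsf1a, Tnfrsf1b, Fas and Tnfrsf10b, and the genes Cflar, Casp8, Ripk1, Ripk3 and Mlkl, whose products act inside the cell. All 10 were among the 24346 gene symbols measured. There were 3 RNA-seq libraries labelled as stimulated with semaphorin 4D (Sema4D), a ligand of plexin-B receptors, and 3 labelled as control. All 6 were primary articular chondrocytes from ICR mice at postnatal day 4. The labels give no dose, duration or control medium and do not say whether libraries came from separate animals, so p-values measure how far these libraries scatter, which may be technical only.

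TNF binds the receptors encoded by Tnfrsf1a and Tnfrsf1b. The first of these carries a death domain and assembles a membrane complex that signals to NF-kappaB, the transcription factor family of inflammation. From the same receptor, or from Fas or the TRAIL receptor encoded by Tnfrsf10b, a cytosolic complex can form in which caspase-8 starts apoptosis, a contained form of cell death. FLIP, the product of Cflar, pairs with caspase-8 and limits that step. Where caspase-8 is blocked, the kinases RIPK1 and RIPK3 can instead activate MLKL, which breaks the plasma membrane in a process called necroptosis. In joints, TNF is known for raising matrix-degrading enzymes and lowering matrix synthesis in chondrocytes.

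Levels are in FPKM (fragments corrected for transcript length and library depth), so those of different genes can be set side by side. Depth, estimated from the steps of low values, was 1.51e+07 to 1.78e+07 fragments in Sema4D libraries and 1.34e+07 to 1.74e+07 in control libraries. Markers of chondrocytes were abundant in every library: Col2a1, the gene of the main cartilage collagen, lay at 8396 to 9131 FPKM in Sema4D and 10011 to 10952 FPKM in control libraries. The fibroblast collagen gene Col1a1 was also abundant, at 3727 to 3906 FPKM with Sema4D and 3831 to 4130 FPKM in control. In such bulk samples, fewer cells of a type and less RNA per cell cannot be told apart. Of 10 chondrocyte and cartilage markers 9 fell with Sema4D, beside 22.2% of all tested genes. The lubricin gene Prg4 had a log2 fold change of 0.08 (limma adjusted p = 0.132).

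Of the 10 genes, 9 rose with Sema4D and 0 fell at a limma adjusted p under 0.05, beside 24.5% of all 11603 tested genes that rose and 22.2% that fell. By the unadjusted p under 0.05, a looser cut to which these shares do not apply, the counts were also 9 and 0. All 10 averaged 1 FPKM or more, the filter for testing, Tnf only through its values in Sema4D libraries. Fold changes, on the log2(FPKM + 1) scale, ran from 0.13 for Tnfrsf10b to 2.91 for Fas, with a median of 0.39 beside 0.01 over all tested genes. The order of the largest depends on the added constant. With 0.1 in place of 1, Tnf changed by 4.15, while Fas reached at most 3.01 in all settings. Fas, Tnfrsf1b, Tnf and Mlkl stood above the 95th percentile of all tested genes, which was 0.74, and the other 6 did not. For 9 of the 10 genes every Sema4D library was above every control library, beside 29.6% of all tested genes, and for 0 of them the reverse held, beside 27.0%.

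**Figure D1:**
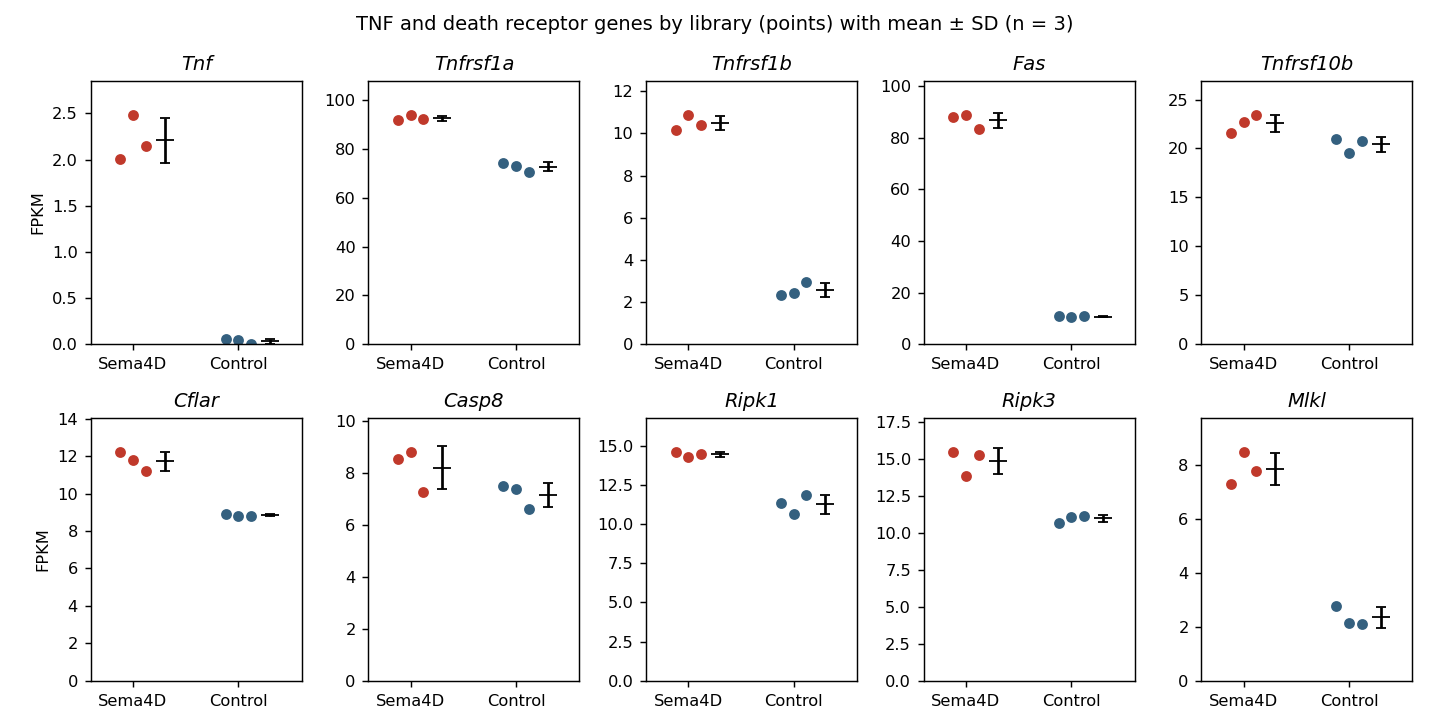
FPKM of each of the 10 genes (vertical axes, linear from 0, a different scale in each panel) in the 3 Sema4D and 3 control libraries (points), with the mean and SD of each group. Sema4D libraries lie above control libraries in every panel but that of Casp8, where 7.25 FPKM in 1 Sema4D library is below 7.36 and 7.47 FPKM in 2 control libraries.

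**Figure D2:**
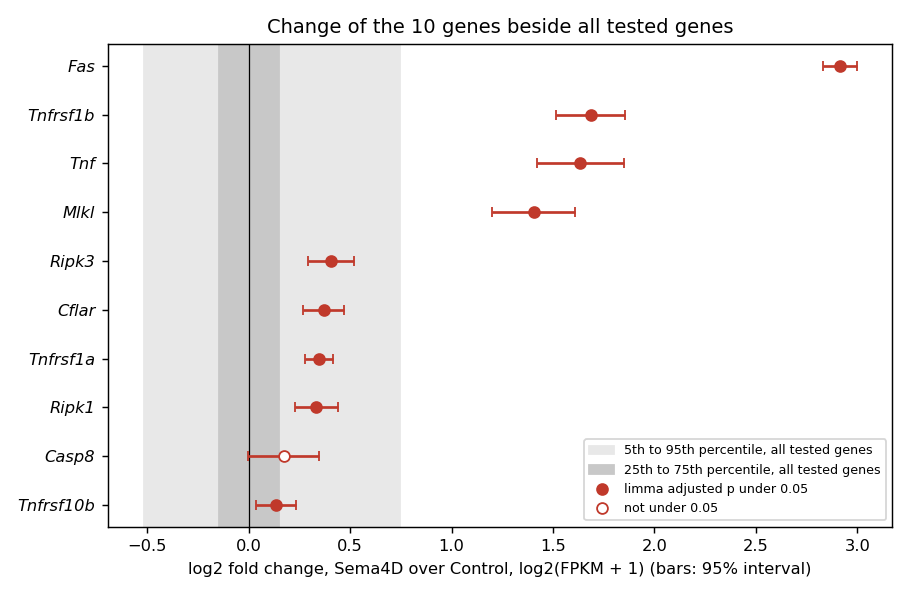
Log2 fold change of each gene, Sema4D over control, on the log2(FPKM + 1) scale (horizontal axis) with its 95% interval, over bands between the 25th and 75th and between the 5th and 95th percentiles of all 11603 tested genes. Fas at 2.91, Tnfrsf1b at 1.69, Tnf at 1.63 and Mlkl at 1.41 lie outside both bands, and the interval of Casp8 reaches 0.

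The ligand gene Tnf (chromosome 17, 35199367 to 35202007 in GRCm38.p6, the assembly of mm10) rose with Sema4D and was at the level of single fragments or listed at 0 in control libraries. It had 2.003, 2.48 and 2.14 FPKM in Sema4D libraries, against 0.0531, 0.0410 and 0 FPKM in control libraries. The groups did not overlap, and the values correspond to about 51, 60 and 47 fragments in Sema4D libraries, against about 1, 1 and 0 in control libraries. The fitted log2 fold change was 1.63 (SE 0.0925, limma adjusted p = 2.18e-06). That size rests on the added constant, since it was 4.15 with a constant of 0.1 in place of 1, and no ratio is given against a group with a listed 0, which in such files can also be a failed estimate. Even with Sema4D, Tnf had the lowest level of the 10 genes.

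The genes on both sides of Tnf were listed near or at 0. Ltb, 3061 bases from Tnf and encoding a lymphotoxin subunit, was listed at 0.0629, 0 and 0.149 FPKM in Sema4D libraries and at 0 in all 3 control libraries. Lta, 1157 bases from Tnf on the other side and encoding the other lymphotoxin subunit, was listed at 0 in all 6 libraries. Fasl, the gene of the ligand of Fas, was listed at 0 in all 3 Sema4D libraries and at 0.0441, 0.0341 and 0 FPKM in control libraries. Tnfsf10, the gene of TRAIL, had 0.0126 to 0.0416 FPKM with Sema4D and 0 to 0.0156 FPKM in control. These ligand genes were under the filter and not tested, and at such levels small differences between the groups were not detectable. Tnfsf14, which encodes the ligand LIGHT, was listed at 0 in all 6 libraries.

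Among 7 other ligand genes of the TNF superfamily, 2 passed the filter. Tnfsf15, the ligand of the death receptor encoded by Tnfrsf25, had 6.14, 5.68 and 5.77 FPKM in Sema4D libraries, against 0.0657, 0.0508 and 0.0529 FPKM in control libraries. It rose by 2.70 on the log2(FPKM + 1) scale (limma adjusted p = 1.91e-08), or by 5.25 with a constant of 0.1, and passed the filter only through the Sema4D libraries. Tnfsf12, the gene of TWEAK, had 9.99 ± 0.348 FPKM with Sema4D and 10.2 ± 0.367 FPKM in control (SD, n = 3 each), a log2 fold change of -0.03 (95% interval -0.13 to 0.08, limma adjusted p = 0.661).

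Fas (chromosome 19, 34290647 to 34327775) encodes the receptor of Fas ligand, which carries a death domain. It was at 88.2, 88.7 and 83.6 FPKM in Sema4D libraries, against 10.8, 10.4 and 10.8 FPKM in control libraries. Means were 86.8 ± 2.84 FPKM and 10.7 ± 0.218 FPKM (SD, n = 3 each), an 8.15-fold ratio, with a log2 fold change of 2.91 (SE 0.0362, limma adjusted p = 2.14e-10). The rise was the 63rd largest of the 11603 tested genes. Fas was the second of the 10 genes by level with Sema4D, after Tnfrsf1a, and the fifth in control, where its range overlapped that of Ripk3. Its share of the summed FPKM of the 10 genes was 31.9% in Sema4D and 7.24% in control libraries.

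Both TNF receptor genes rose with Sema4D. Tnfrsf1a (chromosome 6, 125349723 to 125362483), which encodes the receptor with the death domain, had 92.0, 93.9 and 92.2 FPKM in Sema4D libraries, against 74.4, 73.0 and 70.8 FPKM in control libraries. That was the highest level of the 10 genes in both groups, and it rose by 0.35 (SE 0.0293, limma adjusted p = 2.49e-05), a 1.27-fold ratio of means. Tnfrsf1b (chromosome 4, 145212368 to 145246870) encodes the receptor that lacks a death domain and signals through TRAF2. It had 10.2, 10.9 and 10.4 FPKM in Sema4D libraries, against 2.32, 2.44 and 2.97 FPKM in control libraries, a 4.06-fold ratio of means (log2 fold change 1.69, SE 0.0733, limma adjusted p = 4.23e-07). In every library Tnfrsf1b stayed below Tnfrsf1a, and the ratio of their FPKM was 0.113 ± 0.00252 with Sema4D and 0.0356 ± 0.00567 in control (SD, n = 3 each).

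Tnfrsf10b (chromosome 14, 69767472 to 69784411), the gene of the mouse TRAIL death receptor, had 21.6, 22.7 and 23.4 FPKM in Sema4D libraries, against 21.0, 19.6 and 20.8 FPKM in control libraries. The groups came close without overlapping. Its rise of 0.13 (95% interval 0.03 to 0.24, limma adjusted p = 0.0343) was the smallest of the 10 and missed the threshold in 8 of 13 alternatives. Among these were leaving out control replicate 2 (adjusted p = 0.108) or 3 (0.0628) and Sema4D replicate 2 (0.0870) or 3 (0.106), and scaling each library to the same sum (0.343), with adjusted p-values between 0.0276 and 0.343 in all settings.

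The 4 genes with the largest rises are shown by their promoters. They were picked by the size of their rise, and whether they vary together was not tested. Each window runs from 250 bases before to 50 after the start annotated for that promoter entry. Such a start can differ from the outer end of the gene. The Mlkl window lies wholly inside the gene's span (111311255 to 111338479). Sequences are those of RefSeq on GRCm38.p6, from the C57BL/6J reference strain and not from the ICR mice used, and 9 of the 10 genes matched an entry. They are written 5′ to 3′ on the gene's strand, and capitals mark matches to 4 motifs searched on both strands. The motifs were the AP-1 site TGANTCA and the STAT site GAS, TTCNNNGAA, each its own reverse complement, an interferon regulatory factor (IRF) site, and the kappaB consensus.
Fas, chr19:34290409-34290708, plus strand: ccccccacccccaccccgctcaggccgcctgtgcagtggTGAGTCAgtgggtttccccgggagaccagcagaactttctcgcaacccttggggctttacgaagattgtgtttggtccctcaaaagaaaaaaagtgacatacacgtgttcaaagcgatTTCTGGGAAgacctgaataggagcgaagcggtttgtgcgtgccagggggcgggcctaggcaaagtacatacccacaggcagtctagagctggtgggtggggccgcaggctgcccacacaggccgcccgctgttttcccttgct
Tnfrsf1b, chr4:145246821-145247120, minus strand: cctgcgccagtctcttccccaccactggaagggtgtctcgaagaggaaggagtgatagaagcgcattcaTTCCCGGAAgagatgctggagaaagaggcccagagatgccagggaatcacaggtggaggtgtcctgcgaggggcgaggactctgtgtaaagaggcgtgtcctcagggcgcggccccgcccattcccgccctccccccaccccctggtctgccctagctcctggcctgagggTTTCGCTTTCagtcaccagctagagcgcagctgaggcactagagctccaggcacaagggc
Tnf, chr17:35201958-35202257, minus strand: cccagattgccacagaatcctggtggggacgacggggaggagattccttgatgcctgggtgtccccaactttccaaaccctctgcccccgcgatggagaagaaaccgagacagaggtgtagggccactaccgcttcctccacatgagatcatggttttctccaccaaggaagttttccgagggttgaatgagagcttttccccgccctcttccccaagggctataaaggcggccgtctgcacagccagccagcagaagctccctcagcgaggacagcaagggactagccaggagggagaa
Mlkl, chr8:111338156-111338455, minus strand: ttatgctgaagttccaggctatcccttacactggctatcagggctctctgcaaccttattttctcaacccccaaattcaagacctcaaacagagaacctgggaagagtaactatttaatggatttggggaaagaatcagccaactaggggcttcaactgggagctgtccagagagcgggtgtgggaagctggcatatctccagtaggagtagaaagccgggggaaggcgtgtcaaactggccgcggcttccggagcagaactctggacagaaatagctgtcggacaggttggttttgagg

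The Fas promoter held 1 AP-1 match and 1 GAS match, and the Tnfrsf1b promoter 1 GAS match and, on the opposite strand, 1 IRF match. In the windows of Tnf and Mlkl the letters of the 4 motifs were not found, and bases before the outer end of Mlkl were not searched. Over the 10 promoter entries of 9 genes (Ripk1 has 2), AP-1 matched 1, GAS 4, IRF 3 and kappaB 0. The GAS entries were those of Fas, Tnfrsf1b, Tnfrsf1a and Ripk1, and the IRF entries those of Tnfrsf1b, Cflar and Ripk1. The Ripk1 entry with these matches (34002624 to 34002923) and the Casp8 entry (58802252 to 58802551) also lie inside the spans of their genes. Of all 32851 promoters of the same length, 7.81% held an AP-1, 8.30% a GAS, 3.44% an IRF and 8.46% a kappaB match. A match is a string of letters and not a bound site, and windows of 300 bases leave out distal elements.

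The genes of caspase-8 and of its partner FLIP lie 36348 bases apart on chromosome 1. Cflar (58711311 to 58758884) had 12.2, 11.8 and 11.2 FPKM in Sema4D libraries, against 8.90, 8.82 and 8.79 FPKM in control libraries. The groups did not overlap, and Cflar rose by 0.37 (SE 0.0440, limma adjusted p = 0.000196), a 1.33-fold ratio of means. The gene-level values do not separate its long and short isoforms, which differ in how they act on caspase-8. Casp8 (58795233 to 58847503) had 8.53, 8.79 and 7.25 FPKM in Sema4D libraries, against 7.47, 7.36 and 6.60 FPKM in control libraries. Here the groups overlapped, and the log2 fold change of 0.17 (95% interval -0.00196 to 0.35) did not pass (limma adjusted p = 0.0963). Without Sema4D replicate 3, the lowest of its group, it was 0.25 and passed (adjusted p = 0.0192), with adjusted p-values between 0.0192 and 0.300 in all settings.

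The kinase genes Ripk1 and Ripk3 both rose with Sema4D. Ripk1 (chromosome 13, 34002225 to 34035170), a kinase and scaffold of the membrane and cytosolic complexes, had 14.6, 14.3 and 14.4 FPKM in Sema4D libraries, against 11.3, 10.6 and 11.8 FPKM in control libraries (log2 fold change 0.33, SE 0.0456, limma adjusted p = 0.000455). Its exons share 241 bases, 2.89% of their length, with Serpinb6a on the other strand, a gene that reached 161 FPKM. They also share 511 bases with the pseudogene Gm17084 on the same strand. The strand setting is not known, so the values of Ripk1 are less certain. Ripk3 (chromosome 14, 55784995 to 55788857), the kinase that phosphorylates MLKL, had 15.5, 13.9 and 15.3 FPKM with Sema4D, against 10.7, 11.1 and 11.1 FPKM in control (0.40, SE 0.0493, limma adjusted p = 0.000229). For both genes all Sema4D libraries were above all control libraries. Within each group the ranges of Ripk1 and Ripk3 overlapped.

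Mlkl (chromosome 8, 111311255 to 111338479) encodes the effector that breaks the membrane in necroptosis. It had 7.30, 8.47 and 7.76 FPKM in Sema4D libraries, against 2.78, 2.15 and 2.12 FPKM in control libraries. Its 3.34-fold ratio of means was larger than that of any other gene of the set inside the cell, with a log2 fold change of 1.41 (SE 0.0886, limma adjusted p = 4.15e-06). With Sema4D its range overlapped that of Casp8, and in control that of Tnfrsf1b. Sema4D replicate 2 was the highest of its group for Mlkl and for 6 of the 10 genes in all. Control replicate 1 was likewise the highest of its group for Mlkl and for 7 of the 10 genes. Without Sema4D replicate 2 the change of Mlkl was 1.35 and that of Tnf 1.58.

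Ratios of genes within a library were compared for 4 pairs. The exact two-sided permutation test was run on differences of log2(FPKM + 1), which the added 1 shrinks for low genes, and its smallest possible p with 3 libraries against 3 is 0.1. Cflar stood at 1.43, 1.34 and 1.55 times Casp8 in Sema4D libraries, against 1.19, 1.199 and 1.33 times in control libraries. The log2 ratio was 0.20 higher, on the log2(FPKM + 1) scale, with groups that did not overlap (exact p = 0.1, adjusted over 4 ratios 0.133). Mlkl stood at 0.472, 0.611 and 0.508 of Ripk3 with Sema4D, against 0.260, 0.194 and 0.190 in control, a difference of 1.001 on the same log2 scale (exact p = 0.1, adjusted 0.133). The ratio of Tnfrsf1b to Tnfrsf1a differed by 1.34 (exact p = 0.1, adjusted 0.133). With a constant of 0.1 these differences were 1.27 for Mlkl to Ripk3 and 1.64 for Tnfrsf1b to Tnfrsf1a. That of Ripk3 to Ripk1 was 1.06, 0.969 and 1.06 with Sema4D, against 0.944, 1.04 and 0.941 in control, and the groups overlapped (difference 0.07, exact p = 0.2, adjusted 0.2).

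**Figure D3:**
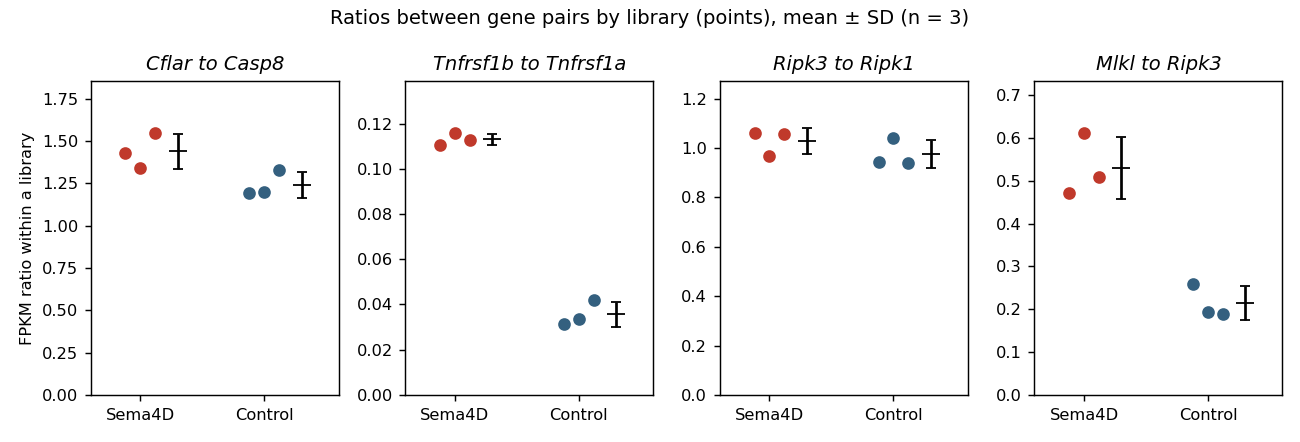
Ratio of the FPKM of one gene to that of another within each of the 3 Sema4D and 3 control libraries (points; linear vertical axes from 0), with the mean and SD of each group. Groups are apart for Tnfrsf1b to Tnfrsf1a (0.113 against 0.0356 on average) and Mlkl to Ripk3 (0.531 against 0.214), nearly touch for Cflar to Casp8, and overlap for Ripk3 to Ripk1.

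Other genes of the pathway were read from lists written from general knowledge. Of 22 genes of the membrane complex of the TNF receptor and its regulators, 11 rose and 0 fell, beside 24.5% and 22.2% of all tested genes. By the unadjusted limma p under 0.05, a looser cut to which these shares do not apply, the counts were 13 and 0. The median log2 fold change was 0.22. Tnfaip3, which encodes the ubiquitin-editing inhibitor A20, was at 11.1 ± 0.385 FPKM with Sema4D and 0.627 ± 0.114 FPKM in control (SD, n = 3 each; 2.90, limma adjusted p = 1.29e-08). It passed the filter only through the Sema4D libraries, and its change was 3.96 with a constant of 0.1. Birc3, a ubiquitin ligase gene that holds RIPK1 in the membrane complex, had 17.7 ± 0.297 FPKM with Sema4D and 3.11 ± 0.542 FPKM in control (2.19). Tnip1, whose product binds A20, rose by 1.90, the adaptor genes Traf1 and Traf2 by 1.45 and 1.32, and Birc2, the paralog of Birc3, by 0.84. The other rises were Spata2 (0.71), Traf5 (0.55, or 0.87 with a constant of 0.1), Ikbkb (0.29), Map3k7 (0.25) and Cyld (0.19). The adaptor gene Tradd did not pass, with 12.6 ± 1.82 FPKM in Sema4D and 10.4 ± 0.693 FPKM in control libraries (limma adjusted p = 0.0507). The call of Cyld was lost in 6 of 13 alternatives, among them leaving out control replicate 2 (adjusted p = 0.0870) or 3 (0.0628) and Sema4D replicate 1 (0.0837) or 2 (0.0857), with adjusted p-values between 0.0197 and 0.122 in all settings.

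Of 11 other receptor genes of the superfamily, 9 were tested. Of these 5 rose and 1 fell, beside 24.5% and 22.2% of all tested genes. By the unadjusted limma p under 0.05, a looser cut to which these shares do not apply, 5 rose, and Tnfrsf21 and Tnfrsf25 fell. The median was 0.18, or 0.0826 with no filter on low values. Tnfrsf14, the receptor of LIGHT, had 4.67 ± 0.513 FPKM with Sema4D and 0.907 ± 0.168 FPKM in control (1.57, limma adjusted p = 3.14e-06). Edar, a receptor with a death domain that binds ectodysplasin, had 2.55 ± 0.124 and 0.529 ± 0.104 FPKM in Sema4D and control libraries (1.22), or 2.08 with a constant of 0.1. Tnfrsf14 and Edar passed the filter only through the Sema4D libraries. The receptor gene Ngfr, under the filter and not tested, went the other way without overlap. It had 0.149 to 0.208 FPKM with Sema4D and 0.486 to 0.858 FPKM in control. For Tnfrsf26, also under the filter, the groups overlapped, with means of 0.0866 FPKM with Sema4D and 0.0267 FPKM in control. Tnfrsf11b, the gene of the soluble decoy receptor osteoprotegerin, had 82.4 ± 4.84 FPKM with Sema4D and 82.2 ± 3.24 FPKM in control (95% interval of the log2 fold change -0.11 to 0.11, limma adjusted p = 0.973). The mouse TRAIL decoy receptor gene Tnfrsf23 rose by 0.48, the TWEAK receptor gene Tnfrsf12a by 0.37 and Eda2r by 0.18. Tnfrsf25, whose ligand gene Tnfsf15 rose, fell to 1.56 ± 0.299 FPKM in Sema4D libraries, against 3.55 ± 0.576 FPKM in control libraries (-0.83, limma adjusted p = 0.000644). The rise of Eda2r (adjusted p = 0.0203) was lost without control replicate 2 (0.0691), Sema4D replicate 1 (0.0679) or Sema4D replicate 2 (0.0631), and adjusted p-values were between 0.0115 and 0.0992 in all settings.

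Of 11 genes of apoptosis at or downstream of death receptor signalling, 5 rose and 0 fell, beside 24.5% and 22.2% of all tested genes. By the unadjusted limma p under 0.05, a looser cut to which these shares do not apply, 6 rose and Apaf1 alone fell. The median was 0.17, or 0.0810 without Sema4D replicate 2. Bid, whose product caspase-8 cuts to engage mitochondria, had 50.3, 46.9 and 49.1 FPKM in Sema4D libraries, against 5.28, 5.24 and 5.14 FPKM in control libraries. Its 9.34-fold ratio of means (log2 fold change 2.999, limma adjusted p = 2.84e-10) was above the 8.15-fold ratio of Fas. The pore-forming genes Bak1 and Bax rose by 0.47 and 0.37, Casp6 by 0.23 and the cytochrome c gene Cycs by 0.20. The call of Cycs was lost with library sums made equal (0.13, limma adjusted p = 0.0561; 0.00599 to 0.0561 in all settings). Fadd, the adaptor between death receptors and caspase-8, had 5.34 ± 0.780 and 4.62 ± 0.161 FPKM in Sema4D and control libraries (0.17, limma adjusted p = 0.141), and its change was 0.07 without Sema4D replicate 2. Casp6 (adjusted p = 0.0419) lost its call in 8 of 13 alternatives, including each of control replicates 2 and 3 and Sema4D replicates 1 and 3 left out, and adjusted p-values were between 0.0229 and 0.138 in all settings.

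Of 11 genes linked to necroptosis beside the members, 4 rose and 2 fell, beside the 24.5% and 22.2% of all tested genes. The median of 0.03 ranged from 0.00838 without Sema4D replicate 2 to 0.0611 without control replicate 2. Zbp1, a nucleic acid sensor that can activate RIPK3, had 2.33, 4.25 and 1.48 FPKM in Sema4D libraries, against 0.130, 0.199 and 0.105 FPKM in control libraries (1.62, limma adjusted p = 0.000642). It passed the filter only through the Sema4D libraries and was highest in Sema4D replicate 2, as Mlkl was, and its change was 1.33 without that library and 3.41 with a constant of 0.1. Mapkapk2, a kinase that restrains RIPK1, rose by 0.64, the membrane repair gene Chmp4b by 0.20 and Ppm1b, a phosphatase gene, by 0.17, a call lost with library sums made equal (0.09, limma adjusted p = 0.0776; 0.00480 to 0.0776 in all settings). Plk1 and Aurka, known as kinases of cell division, fell by 0.28 and by 0.27.

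Of 7 genes for the release of TNF and its receptors from the cell surface, 4 rose and 1 fell, beside 24.5% and 22.2% of all tested genes. The median was 0.11, and 0.0272 after quantile normalization and 0.0307 with library sums made equal. Adam17, the protease that sheds TNF and both of its receptors, was at 47.3, 47.0 and 45.7 FPKM with Sema4D, against 19.5, 18.7 and 19.7 FPKM in control (1.23, limma adjusted p = 3.21e-08). Rhbdf2, whose product carries ADAM17 to the surface, had 14.95, 14.6 and 15.5 FPKM in Sema4D libraries, against 2.67, 3.21 and 3.01 FPKM in control libraries (2.01), and its relative Rhbdf1 rose by 0.33. Timp3, an inhibitor of ADAM17, fell to 628 ± 25.1 FPKM in Sema4D libraries, against 1435 ± 39.7 FPKM in control libraries (-1.19). Adam10, a related protease gene, passed narrowly (0.11, limma adjusted p = 0.0358) and did not pass in 9 of 13 alternatives, including each of 5 single libraries left out (all but control replicate 1), and adjusted p-values were between 0.0193 and 0.578 in all settings.

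**Figure D4:**
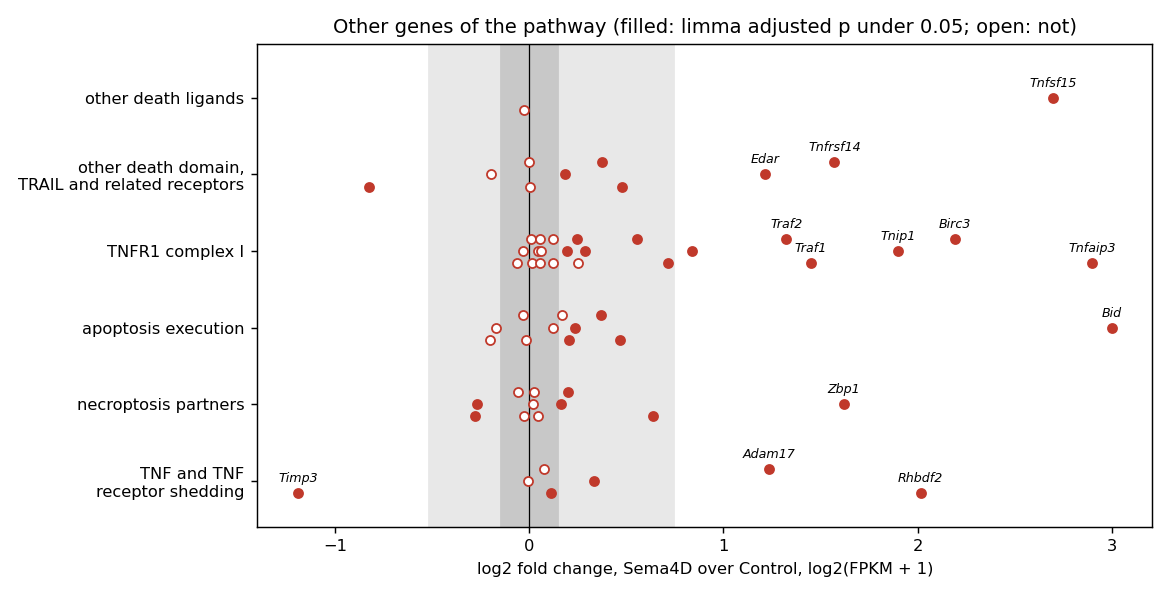
Log2 fold change, Sema4D over control, on the log2(FPKM + 1) scale (horizontal axis) for each tested gene of 6 lists (rows), filled where the limma adjusted p was under 0.05, over bands between the 25th and 75th and between the 5th and 95th percentiles of all tested genes. Most points lie inside the wider band, while Bid (2.999), Tnfaip3 (2.90), Tnfsf15 (2.70), Birc3 (2.19) and Rhbdf2 (2.01) lie to the far right and Timp3 (-1.19) to the left.

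Tnf, Tnfrsf1b and Fas are also expressed by leukocytes, so markers of these cells were read beside them. Of 12 macrophage and monocyte markers 4 were tested. Of these Cd14 rose (0.80) and Lyz2 (-0.46) and Tyrobp (-0.70) fell, beside 24.5% and 22.2% of all tested genes. Tyrobp, at a mean of 0.636 FPKM with Sema4D and 1.68 FPKM in control, passed the filter only through the control libraries. The summed level of the 12 was 24.5 to 27.9 FPKM in Sema4D and 26.8 to 33.9 FPKM in control libraries. Most of that sum was Lyz2, at 14.8 to 17.3 FPKM with Sema4D and 18.5 to 25.3 FPKM in control. Adgre1, the gene of the macrophage antigen F4/80, had 0.563 to 0.750 FPKM with Sema4D and 0.0784 to 0.268 FPKM in control. Fcer1g had 0.875 to 1.63 and 0 to 0.536 FPKM. The macrophage complement gene C1qa went the other way, with 0 to 0.0639 FPKM with Sema4D and 0.395 to 0.822 FPKM in control. So did C1qc, with 0 to 0.132 and 0.204 to 0.264 FPKM. Of 9 markers of lymphocytes, natural killer cells and neutrophils in the file, 6 were listed at 0 in all libraries. Their sum was 0.179 to 0.852 FPKM with Sema4D and 0.0595 to 0.127 FPKM in control. S100a8 was listed at 0.624, 0 and 0.369 FPKM in Sema4D libraries and at 0 in all 3 control libraries. Cd79a had 0.107 to 0.295 FPKM with Sema4D and 0 to 0.0534 FPKM in control. The groups overlapped for the leukocyte gene Ptprc, at 0.0719 to 0.119 FPKM with Sema4D and 0.0595 to 0.127 FPKM in control. Of 7 fibroblast and synovial lining markers 3 rose and 3 fell, beside 24.5% and 22.2% of all tested genes. Of 5 endothelial markers all were under 1 FPKM in every library. The part of such cells in the levels of Tnf, Tnfrsf1b and Fas was not tested.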

How the data were processed

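Total RNA of 3 Sema4D and 3 control libraries was sequenced. The values deposited by the authors are FPKM per gene symbol, and the submitters' processing notes name mm10, Cufflinks 2.2.1, TopHat2 2.0.13, Bowtie2 2.2.3 and SAMtools 0.1.19 without saying how each was used. The annotation, strand setting and scaling across libraries are not given in the sources used here. A count test was not applied, since FPKM are no counts. Genes that averaged 1 FPKM or more (11603 of 24346) were tested on log2(FPKM + 1), computed here from the FPKM as deposited, with limma 3.58.1 (two-sided, with trend; R 4.3.3), leaving out the replicate number, and p-values were adjusted by Benjamini-Hochberg over all tested genes, with 0.05 as the threshold. Fold changes on this scale understate the change of low genes.

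Steps in the FPKM of 1689 single-transcript genes over 2000 nucleotides (GENCODE M21 annotation) gave the estimated depth. Of their low values, 78.5% to 84.1% came within 0.15 of a whole fragment, too few to recover counts. Fragments behind a gene's value are rough, since they assume its longest coding transcript. In each pair of libraries 0.112% to 0.293% of tested genes had identical values. Gene positions are from RefSeq. Python 3.11.15 with scipy 1.17.1 and matplotlib 3.10.9 was used for ratios and figures. Some genes of the apoptosis list are not reported here. The members, gene lists, motifs and tests were chosen with earlier results of these data known. Genes named from lists were the 3 largest changes past the threshold without overlap, all ligand genes and all members of counts of 5 or fewer, and others were named after their values were seen. Alternatives were another constant or filter, quantile normalization, equal library sums, no trend, a replicate block and each library left out.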

Additional observations from a re-analysis of the deposited data

How the results depend on the processing

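Each result was recomputed under up to 13 alternatives. The count of members that rose was 8 or 9 and that of members that fell 0 in every alternative. Tnfrsf1a, Tnfrsf1b, Fas, Cflar, Ripk1, Ripk3 and Mlkl kept their direction and call in 13 of 13, and Tnf in the 12 that tested it. Of all calls, 52.4% were higher, 38.8% after quantile normalization and 34.5% with library sums made equal, where the median change of all genes was -0.05 and -0.07. As deposited, summed FPKM was higher in every Sema4D library (518901 to 527492) than in every control library (492708 to 494123). With a mean of at least 5 FPKM, 0 other ligand genes rose, since Tnfsf15 was not tested. Tnfsf12 was then the only ligand gene tested, so the ligand median was its own change of -0.0266, against 1.34 over 2 genes in the main fit. With that filter 3 other receptor genes rose and 0 fell. Receptor falls were 2 with no filter and with equal sums, and 1 to 2 when single libraries were left out. In the TNF receptor complex and in the apoptosis list, falls were 1 after quantile normalization and 1 with equal sums, where 3 genes of the apoptosis list rose, and leaving out single libraries gave 0 to 1 in the apoptosis list. With equal sums 4 genes of the necroptosis list fell, and that list's median was -0.0500 (-0.0270 after quantile normalization). Calls over all tested genes moved the same way. With equal sums 2005 rose and 3802 fell, and after quantile normalization 2167 and 3415, against 2841 and 2581 in the main fit. The medians of the necroptosis list stayed above those of all genes, -0.07 and -0.05. Whether any list differed from all genes in these settings was not tested. Leaving out single libraries gave log2 fold changes of -0.0437 to 0.000132 for Tnfsf12. The cause of these shifts was not tested.

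Libraries share replicate numbers. Deviations of same-numbered libraries had a positive r across genes for number 1 only (0.140, against -0.0809 and -0.0544 for numbers 2 and 3). The numbers were therefore not taken as pairs. Sema4D 1 correlated best with control 1, but Sema4D 2 with control 3 (r = 0.103) and Sema4D 3 with control 2 (r = 0.136). All other combinations had a negative r, from -0.0809 to -0.0429. A pairing other than by number was not fitted. With a replicate block 2638 genes rose and 2356 fell, against 2841 and 2581 without it, and 9 members rose. Casp8 passed with it (adjusted p = 0.0372) and Tnfrsf10b did not (0.0611).

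Tnf and the other low ligand genes are limited by depth, at about 1 fragment or fewer in control libraries.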
